A study of Mus musculus with 6 samples.

Results

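The fibrillar and fibril-associated collagen genes on the mouse wound healing PCR array are Col1a1, Col1a2, Col3a1, Col5a1, Col5a2, Col5a3 and Col14a1. They were taken by gene symbol and make up 7 of the 84 wound healing genes and of the 89 gene assays measured. The RNA came from dermal fibroblasts in primary culture, taken from newborn mice of the C57BL/6 strain, used between passages 3 and 5, grown to a monolayer and scratched. The control group (3 cultures) received plain DMEM, and the DS group (3 cultures) received 2,4-dermatan sulfate of the ascidian Styela plicata, a sulfated polysaccharide, at the 50 µg/mL given in the methods. Mitomycin C, which stops proliferation, was present in both groups. The incubation is given as 48 h in the methods and as 24 h in the source label of the DS samples. The treatment protocol of both groups gives 72 h, and the study's results place the array calls at day 1 after wounding. That protocol also names several DS concentrations without assigning one to a sample. Each array of 96 wells is 1 sample, and the design text calls the samples of a group biological triplicates.

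Fibrillar collagens are triple helices that assemble outside the cell into the fibrils that give dermis its tensile strength. Type I collagen, built from the Col1a1 and Col1a2 chains, is the bulk of dermal fibrils, and type III collagen, built from Col3a1 chains, is laid down with it early in a wound. Type V collagen, encoded by Col5a1, Col5a2 and Col5a3, starts fibrils and limits their diameter, and type XIV collagen, encoded by Col14a1, sits on the fibril surface. Dermal fibroblasts are the main source of these proteins in skin.

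The measured value was the CT, the cycle at which the SYBR Green fluorescence of a well crossed a fixed threshold. More template gives an earlier CT, and at full efficiency 1 cycle is a factor of 2. As in the methods, a CT over 36 counted as not detected. CT values of different assays also depend on primer efficiency, so their order is not an order of transcript levels.

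Several features of the arrays bear on every value given here. In the control arrays 23 or 24 of the 77 wound healing genes outside the collagen set were detected, against 49 to 51 in the DS arrays. The genomic DNA control well gave a CT between 33.08 and 34.02 in DS, while in control it stayed without a CT. None of the 18 wells of the positive PCR control reached a CT. The 3 reverse transcription control wells of an array hold the same assay, yet the first gave a CT only in the DS arrays, at 28.95 to 30.18, while the second gave a CT of 21.68 to 23 in the control arrays and of 39.69 and 41 in DS replicates 1 and 3. Within DS replicate 3 these wells lay 12.05 cycles apart and within control replicate 1 they lay 15.29 cycles apart. Which of the 3 wells came early thus differed between the groups, and whether the wells of both groups were read in the same order was not tested. The gene of every CT given here is taken from its deposited well position. A different order in 1 group or in both would change which gene a CT belongs to. In a bulk extract, fewer cells of a type and less RNA per cell cannot be told apart.

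The upstream sequences of the members for which RefSeq (GRCm38.p6) gave one are shown as a description. Any link between their letters and detection was not tested. These sequences lie upstream of the outermost annotated start of the gene, with at most 250 bases kept. They are chr6:4505368-4505617 on the plus strand for Col1a2, chr1:45311288-45311537 on the plus strand for Col3a1, chr2:27886175-27886380 on the plus strand for Col5a1 and chr9:20815118-20815317 on the minus strand for Col5a3. Capitals mark CCAAT or its reverse complement ATTGG, and TATAAA or its reverse complement TTTATA; these motifs do not overlap each other.
Col1a2: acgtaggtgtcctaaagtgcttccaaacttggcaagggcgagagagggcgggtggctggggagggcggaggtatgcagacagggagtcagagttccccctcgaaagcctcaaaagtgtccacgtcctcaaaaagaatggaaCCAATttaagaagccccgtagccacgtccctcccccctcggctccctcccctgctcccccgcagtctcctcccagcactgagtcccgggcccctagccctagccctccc
Col3a1: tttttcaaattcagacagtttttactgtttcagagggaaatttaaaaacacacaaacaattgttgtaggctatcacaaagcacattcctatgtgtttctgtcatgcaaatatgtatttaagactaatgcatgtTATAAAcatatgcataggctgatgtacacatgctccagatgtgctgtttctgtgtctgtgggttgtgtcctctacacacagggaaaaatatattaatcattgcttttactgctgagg
Col5a1: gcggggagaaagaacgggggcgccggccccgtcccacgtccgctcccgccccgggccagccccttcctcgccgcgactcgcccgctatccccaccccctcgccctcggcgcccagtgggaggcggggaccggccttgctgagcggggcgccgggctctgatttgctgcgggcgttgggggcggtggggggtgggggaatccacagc
Col5a3: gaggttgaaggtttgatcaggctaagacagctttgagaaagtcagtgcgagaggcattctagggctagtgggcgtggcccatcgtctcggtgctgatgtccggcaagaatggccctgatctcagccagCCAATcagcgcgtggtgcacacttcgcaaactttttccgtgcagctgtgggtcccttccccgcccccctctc
Of all 32851 RefSeq promoter windows of 300 bases, 37.4% held CCAAT on either strand and 13.6% held TATAAA on either strand. The stretches printed here are shorter, from 200 to 250 bases, so these shares are not for a like length. The shown stretches of Col1a2 and Col5a3 held 1 CCAAT each, that of Col3a1 held 1 TATAAA, and that of Col5a1 held neither. The whole window of Col1a2 held 2 matches of CCAAT or ATTGG, and the second is not printed. A match is a description of the letters and not a shown binding site. Col1a1, Col5a2 and Col14a1 had no entry. Col3a1 and Col5a2 are neighbours in this annotation, with 0 genes annotated between them.

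In the DS cultures 6 of the 7 collagens were detected in all 3 arrays, whereas in the control cultures Col5a2 was the 1 collagen detected. Col1a1, Col1a2, Col3a1, Col5a1 and Col14a1 gave no CT at all in any control array. The fibroblast markers of the array are Col1a1, Col1a2 and Col3a1 themselves, so they give no separate check of the cell label. The housekeeping genes Actb, B2m and Gapdh likewise gave no CT in any control array, and a missing CT is therefore given only as not detected. All 6 detected collagens were called higher in DS and none lower (limma, Benjamini-Hochberg adjustment over 64 tested genes, threshold 0.05). For 5 of them, detected in DS alone, this direction was fixed by their entry through DS under the main reference. Only Col5a2 could have come out either way. In the same fit 71.9% of all tested genes were called higher, 20.3% lower and 92.2% in either direction. In all 6 collagens the groups did not overlap, as in 93.8% of the tested genes, and 73.4% of the tested genes were without overlap and higher in DS. The direction of the collagens was therefore that of most assays on these arrays. For each of the 6 the two-sided exact permutation p was 0.1, the smallest that 3 against 3 arrays allow. Their median log2 fold change was 4.13 with bounds included, beside 4.40 over all 64 genes, of which 46 are bounds too. The bounds of Col1a1, Col1a2 and Col3a1 lay above 4.40 and the measured value of Col5a2 lay under it, whereas the bounds of Col5a3 and Col14a1 do not place these genes on either side. The 4.40 itself depends on the cutoff and was 6.07 with a cutoff of 40. A bound above it therefore does not place a gene above the true median.

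**Figure D1:**
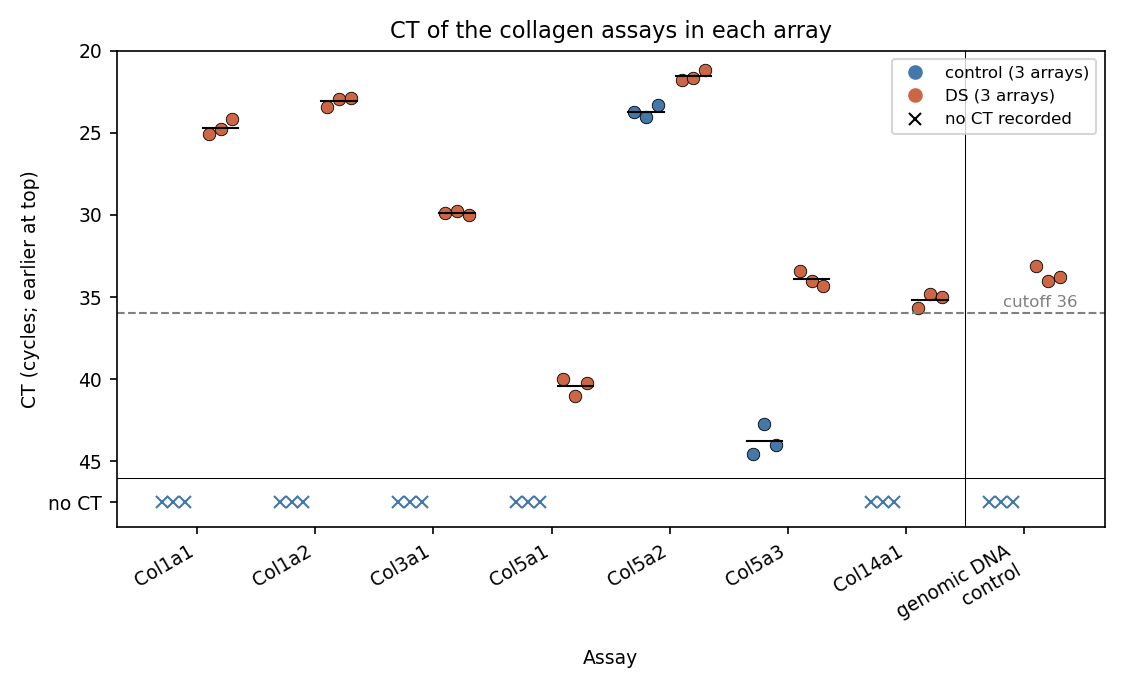
CT in cycles (vertical axis, earlier CT at the top) of the 7 collagen assays and the genomic DNA control well in the 3 control arrays (blue) and the 3 DS arrays (orange). Points are single arrays, lines are group means of recorded CT, crosses are wells without a CT, and the dashed line is the cutoff of 36. Col5a2 is the collagen seen under the cutoff in both groups, and Col5a1 stays over it in DS.

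Type I collagen had the highest bounds of the set. Col1a1, which encodes the chain present in every type I molecule, had a CT of 25.1, 24.78 and 24.16 in DS replicates 1, 2 and 3 and none in control. Against a control CT of 36 its log2 fold change was at least 11.31 (standard error 0.34, adjusted p = 5.62e-09, limma). Col1a2, the partner chain of the type I heterotrimer, had a CT of 23.41, 22.91 and 22.87 in DS and none in control. Its log2 fold change was at least 12.93 (standard error 0.30, adjusted p = 1.10e-09, limma). The standard error and p of such a bound treat the cutoff as a measured value. Both chains crossed the threshold ahead of the genomic DNA control of the same array, Col1a1 by 8.95 ± 0.858 cycles (SD, n = 3) and Col1a2 by 10.6 ± 0.780 cycles (SD, n = 3).

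The distance between the chains of type I collagen was read within each DS array. Col1a1 crossed the threshold 1.69, 1.87 and 1.29 cycles after Col1a2 in DS replicates 1, 2 and 3, a mean of 1.62 ± 0.297 cycles (SD, n = 3). This distance needs no normalizing gene, but it includes any difference in efficiency between the assays. Its spread was not particular to the type I chains. The SD was smaller for Col1a1 behind Col5a2 (0.170 cycles) and Col1a2 behind Col5a2 (0.227 cycles). For the other pairs of collagens compared it was larger, from 0.336 to 0.750 cycles (n = 3 each).

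Type III collagen was detected later. Col3a1 had a CT of 29.9, 29.77 and 30.03 in DS, the smallest spread of the detected collagens (SD 0.130 cycles, n = 3), and none in control. Its log2 fold change was at least 6.09 (standard error 0.28, adjusted p = 5.96e-08, limma). It crossed the threshold 3.73 ± 0.535 cycles (SD, n = 3) before the genomic DNA control of the same array, and 5.22 ± 0.571 cycles (SD, n = 3) after Col1a1.

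The chains of type V collagen each behaved differently. Col5a2 had a CT of 23.76, 24.05 and 23.31 in control replicates 1, 2 and 3. In DS its CT was 21.77, 21.63 and 21.17, so every DS array was earlier than every control array. The change from 23.7 ± 0.373 (SD, n = 3) to 21.5 ± 0.314 (SD, n = 3) gave a log2 fold change of 2.17 (standard error 0.32, 95% interval 1.43 to 2.91, adjusted p = 0.000186, limma), a factor of 4.51. Among the collagens of this set it is the 1 gene whose fold change is a measurement and not a bound. Of all collagens in DS, Col5a2 had the earliest CT, 12.1 ± 0.696 cycles (SD, n = 3) before the genomic DNA control.

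Col5a3, the least widely expressed chain of type V, had a CT of 33.43, 34.01 and 34.33 in DS. In contrast to the other collagens missing from control, it did give a CT in every control array, at 44.58, 42.73 and 43.98, close to the end of the 45 cycles run. With these set to the cutoff its log2 fold change was at least 2.07 (standard error 0.33, adjusted p = 0.000281, limma). With the recorded CT in place of the cutoff, a setting added after the values were seen, it was 9.83 (standard error 0.51, adjusted p = 1.45e-07, limma). The difference from control was therefore much larger in the recorded CT than the bound shows, although CT values this late are imprecise. In DS, however, Col5a3 came up together with the genomic DNA control. The CT of that control minus the CT of Col5a3 was −0.35, 0.01 and −0.55 cycles in DS replicates 1, 2 and 3. Whether genomic DNA had a part in its CT was not tested.

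Col5a1, which encodes a chain found in most type V molecules, had a CT of 39.98, 41.03 and 40.25 in DS and none in control. With both groups over the cutoff, it has no fold change. The genomic DNA CT minus the CT of Col5a1 was −6.79 ± 0.285 cycles (SD, n = 3), so the collagen was the later one, and it lay 18.9 ± 0.616 cycles (SD, n = 3) behind Col5a2 in the same arrays. Only when the cutoff was dropped and missing CT were set to 45 was Col5a1 called higher (4.57, adjusted p = 1.39e-05, limma), as were 72.6% of all genes tested in that way. Without a control CT, that direction was fixed in advance.

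Type XIV collagen was at the edge of detection. Col14a1 had a CT of 35.64, 34.82 and 35.02 in DS, just under the cutoff, and none in control. Its log2 fold change was at least 0.83 (standard error 0.33, adjusted p = 0.0372, limma). The call was lost without control replicate 1 (0.87, adjusted p = 0.0617), control replicate 2 (0.86, adjusted p = 0.0641), control replicate 3 (0.77, adjusted p = 0.135), DS replicate 2 (0.66, adjusted p = 0.0720) or DS replicate 3 (0.76, adjusted p = 0.0744), all by limma. It was also lost with a CT cutoff of 35 (0.05, adjusted p = 0.844, limma). In every DS array Col14a1 came after the genomic DNA control, whose CT minus that of Col14a1 was −1.53 ± 0.916 cycles (SD, n = 3).

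**Figure D2:**
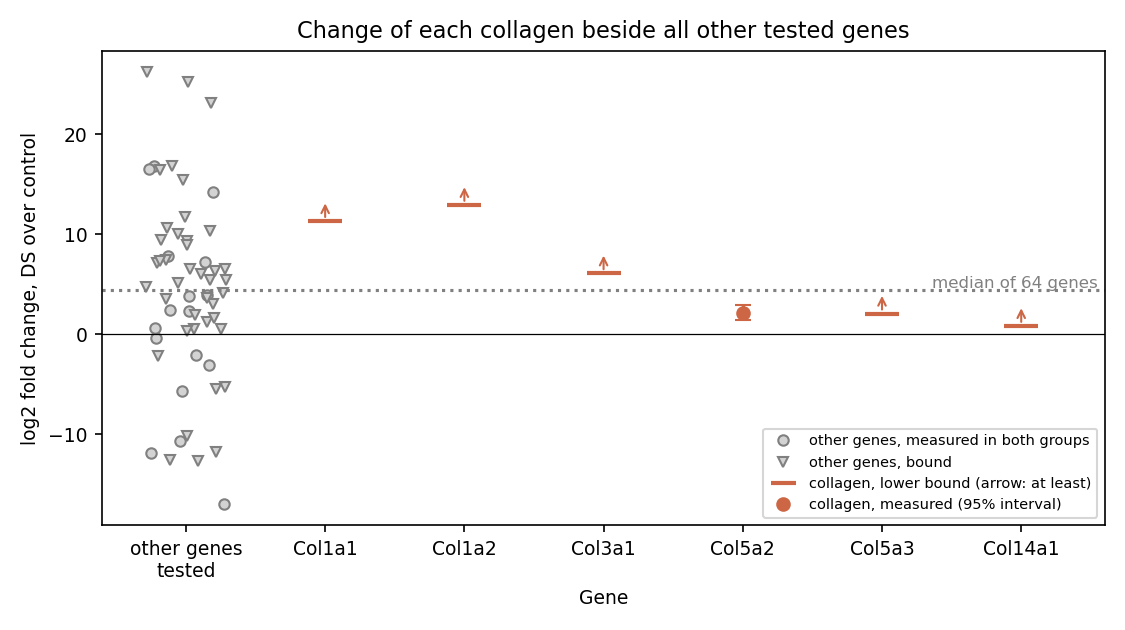
Log2 fold change of DS over control (vertical axis) for the 6 tested collagens and the 58 other tested genes (grey). The orange point is Col5a2 with its 95% interval, orange lines with arrows are lower bounds against a control CT of 36, and the dotted line is the median of all 64 genes, 4.40. The bounds of Col1a1, Col1a2 and Col3a1 lie above that median.

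Only Col1a1, Col1a2, Col3a1 and Col5a2 crossed the threshold before the genomic DNA control in all 3 DS arrays. With the cutoff placed at the earliest genomic DNA CT, 33.08, these 4 collagens were tested and all 4 were called higher, as were 69.1% of the 55 genes tested at that cutoff (limma). Col1a1, Col1a2 and Col3a1 again had no control CT, so only Col5a2 could have come out either way. The spread of the 6 detected collagens between DS arrays ran from an SD of 0.130 to 0.478 cycles, with a median of 0.371, beside a median of 0.652 over the 49 other genes detected in all DS arrays. No DS culture was late for all collagens. DS replicate 1 was the latest for Col1a1, Col1a2, Col5a2 and Col14a1, and DS replicate 3 for Col3a1 and Col5a3. In order of DS CT, the collagens ran Col5a2, Col1a2, Col1a1, Col3a1, Col5a3, Col14a1 and Col5a1, and no neighbours in this order overlapped between arrays.

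The direction of the collagen changes depended on the reference. With Hsp90ab1, Ccl7 and Egfr, whose mean CT lay between 30.2 and 30.4 in every array, all 6 were higher. The study's software chose these genes because they were stable in these same arrays, so their flat mean followed from that choice. Ccl7 and Egfr were also among the 64 tested genes. With the 5 housekeeping genes of the array, 2 (Col1a1 and Col1a2) were called higher and 4 lower, and with Actb and Gapdh, Col1a2 alone was called higher and 4 were lower (limma). Actb gave no CT in control and Gapdh none in any array, so these values rest on the cutoff and are not bounds. The median of all tested genes moved with the collagens, to −3.23 under the 5 housekeeping genes and −7.49 under Actb and Gapdh. A reference shifts all genes of an array alike, so the order of the fitted values was the same under each of them. Of all tested genes, 26.6% were called higher and 60.9% lower under the 5 housekeeping genes, and 15.6% higher and 81.2% lower under Actb and Gapdh.

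**Figure D3:**
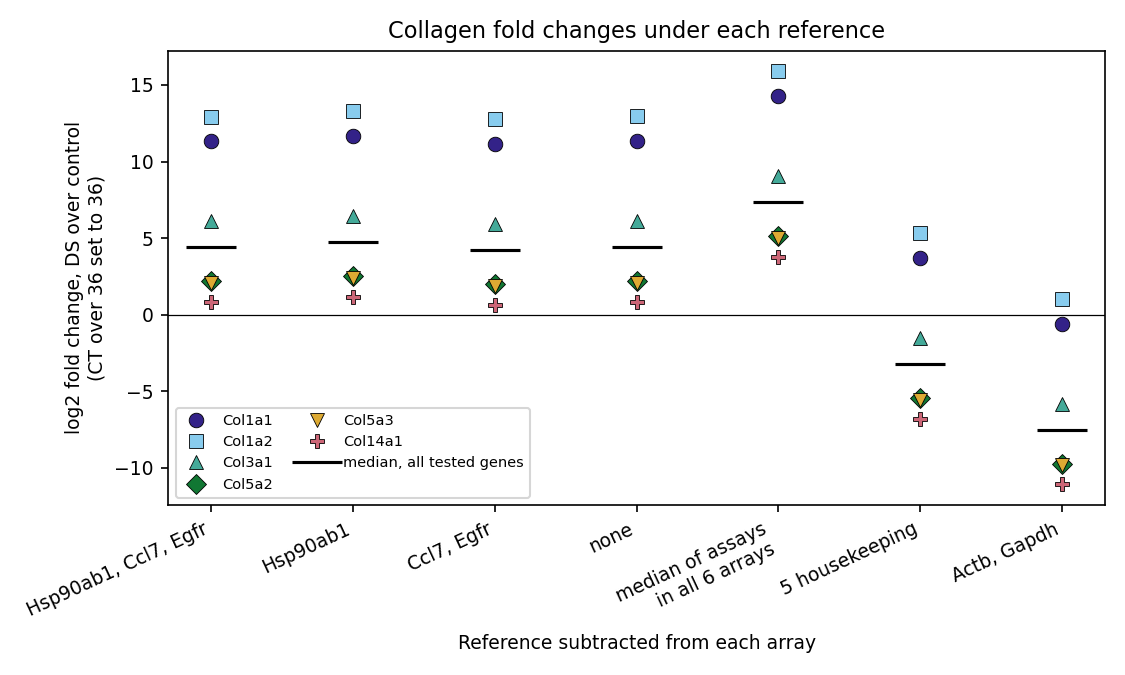
Log2 fold change of DS over control (vertical axis) of the 6 tested collagens under 7 references (horizontal axis), with CT over 36 set to 36; black bars are the median of all tested genes. All collagens move by one amount when the reference changes, and 4 of them are below 0 with the 5 housekeeping genes.

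Comparisons inside one array need no reference. In the control arrays the CT of Col5a2 was 12.3 ± 0.373 cycles (SD, n = 3) earlier than the cutoff, so Col1a1, Col1a2 and Col3a1 were at least that far behind it. In the DS arrays Col1a2 was 1.54 ± 0.227 cycles behind Col5a2, Col1a1 3.16 ± 0.170 cycles and Col3a1 8.38 ± 0.419 cycles (SD, n = 3 each). Relative to Col5a2, the change was thus at least 10.8 cycles for Col1a2, at least 9.14 cycles for Col1a1 and at least 3.92 cycles for Col3a1, and in each the groups did not overlap (two-sided exact permutation p = 0.1, the smallest possible). These 3 pairs were chosen after the values were seen. For Col5a3, which lay 20.1 ± 1.19 cycles (SD, n = 3) behind Col5a2 in control by its recorded CT and 12.4 ± 0.750 cycles behind in DS, the change was 7.66 cycles (standard error 0.814, exact permutation p = 0.1). With its control CT at the cutoff, as for the other genes, the groups overlapped and the bound was −0.107 cycles (exact permutation p = 0.9), so the change relative to Col5a2 rests on CT values over 42. For Col14a1 the distance in DS, 13.6 ± 0.387 cycles (SD, n = 3), was larger than the smallest distance that the control arrays allow, so no change relative to Col5a2 was detectable.

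The array holds 2 other collagens, the basement membrane chains Col4a1 and Col4a3, which were measured in all 6 arrays and were compared with Col5a2 in the same way. For Col4a1, the CT of Col5a2 minus that of Col4a1 was −9.03 ± 0.392 cycles (SD, n = 3) in control and −8.82 ± 0.884 cycles in DS. The groups overlapped, and the means differed by 0.213 cycles (standard error 0.558, exact permutation p = 0.8, adjusted over the 2 pairs 0.8). Without control replicate 3 that difference was 0, and without DS replicate 1 it turned to −0.25. For Col4a3, the CT of Col5a2 minus that of Col4a3 was 1.45 ± 0.729 cycles (SD, n = 3) in control and −11.3 ± 0.728 cycles in DS. Col4a3 was thus the earlier assay in control and the later one in DS, and the means differed by −12.8 cycles (standard error 0.595, exact permutation p = 0.1, adjusted 0.2).

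**Figure D4:**
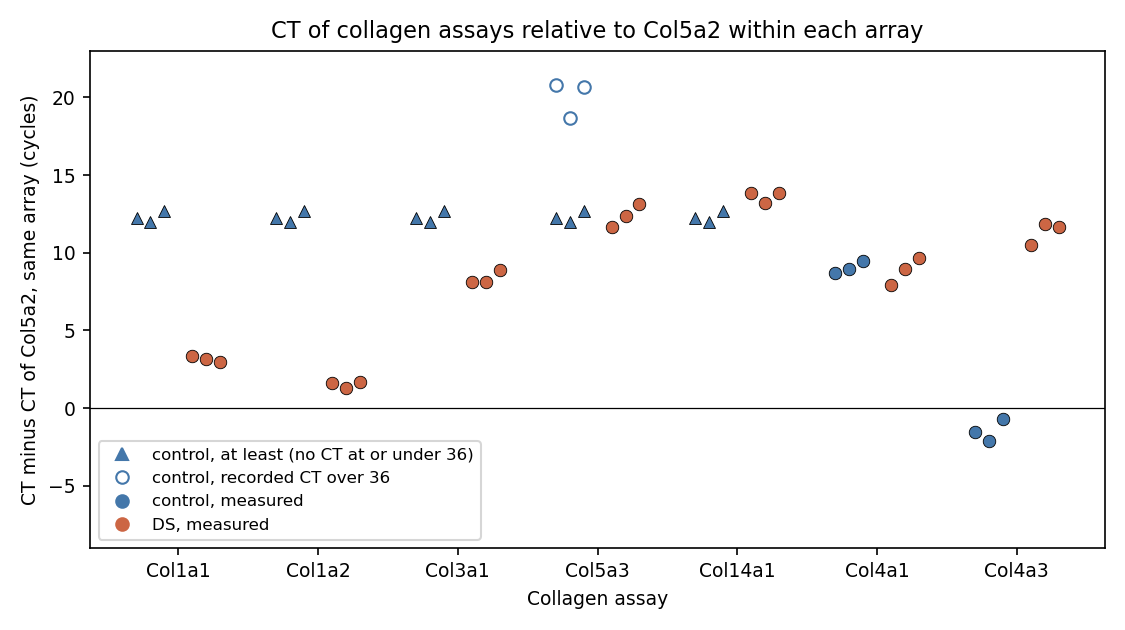
CT of each collagen assay minus the CT of Col5a2 in the same array (vertical axis, cycles) in control (blue) and DS (orange) arrays. Triangles are lower limits where the control CT was over 36 or missing, and open circles are the recorded control CT of Col5a3. Col1a1, Col1a2 and Col3a1 lie closer to Col5a2 in every DS array than the control limits allow, and Col4a1 overlaps between groups.

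For each tested collagen, the gene outside the set with the nearest fitted values was the one with the smallest root mean square difference in −ΔCT (the sign-reversed CT relative to the normalizing genes), taken from the control mean over the 6 arrays, among 58 genes. For Col5a2, the collagen measured in both groups, this was the integrin chain Itgav at 0.273 cycles, but Itgav was not detected in control, so that distance depends on the cutoff. The next was Ctsk, measured in both groups, at 0.336 cycles, beside a median of 3.72 cycles over the 58 genes.

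For the other collagens the control values are the cutoff itself, so the distances were set by the cutoff and by how close the DS CT values of different assays came, and they are no measure of a shared change. They were 0.333 cycles from Col1a1 to Fgf7, 0.876 from Col1a2 to Fgf7, 0.424 from Col3a1 to Il6st and 0.360 from Col14a1 to Egfr, itself a normalizing gene. Col5a3 lay 0.293 cycles from Col4a1, but only with its control CT at the cutoff: its recorded CT gave a log2 fold change of 9.83, against 2.39 for Col4a1.

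Genes that bind, cleave or induce collagens were read against the 71.9% of all tested genes called higher. Of the 3 collagen-binding integrin chains, Itga1 (at least 9.37) and Itga2 (16.79, detected in 2 of the 3 control arrays) were called higher on the log2 scale, and Itgb1, their common partner, was at least 0.56 and not called (adjusted p = 0.176, limma). Of the 5 collagen-cleaving proteases and their inhibitor, 3 of the 4 tested were called higher, a share near that background, 1 was called lower and 1 was not detected. The gelatinases Mmp2 and Mmp9 had log2 fold changes of at least 6.30 and at least 7.41, and the collagen-degrading cathepsin Ctsk one of 2.29, close to that of Col5a2. Mmp1a, an interstitial collagenase, was lower in DS: its CT was 22.43, 24.01 and 23.51 in control and it gave none in DS. The inhibitor Timp1 gave a single CT, 38.12, in DS replicate 2. Of the inducers of collagen genes, Ctgf was called higher (at least 6.48), while Tgfb1 gave a single CT, 39.81, in DS replicate 1 and Tgfbr3 gave none.

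The lists of cell type markers were read against the 92.2% of all tested genes called in either direction, so a difference in a marker was not particular to it. Their levels were summed as 2 to the power of −ΔCT over the wells at or under the cutoff, so a list without such a well has no sum and is only known to lie under the floor that the cutoff sets. The 3 fibroblast markers, which are collagens of this set, had no such well in control, and their sum ran from 154 to 244 in DS. Of the contractile markers, Tagln was detected, in DS only, and Acta2 and Actc1 were not detected in either group, and the sum ran from 75630 to 321249 in DS. Of the epithelial markers, Cdh1 was over the cutoff in DS and without a CT in control, and Itgb6 gave a CT of 10.04, 9.61 and 9.77 in DS and none in control, with a sum of 1235500 to 1683850 in DS. Of the 3 T cell markers, Cd40lg was detected in DS and Il4 in control, with Il2 in neither, and the sums were 0.0769 to 0.0956 in control and 0.226 to 0.419 in DS. The mast cell and neutrophil marker Ctsg was detected in DS only (0.0267 to 0.0736). Whether cells of other types had a part in the collagen differences was not tested.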

How the data were processed

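Real-time PCR arrays were run on RNA of 3 control and 3 DS cultures, and the groups were taken from the sample labels. The deposited CT values were exported by the authors from the cycler software per well, without cutoff or normalization, with null for a missing CT. The second deposited table holds a ratio made by the authors, 2 to the power of −ΔCT from the supplier's portal with a cutoff of 36, given as 1 average per group; they entered only as an alternative. No genome build is involved in either file.

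Gene symbols were joined to the CT by well, and all 7 RefSeq accessions matched RefSeq (GRCm38.p6). A CT over 36 or missing was set to 36, and from each array the average CT of 3 genes (Hsp90ab1, Ccl7, Egfr) was taken away and the sign reversed (−ΔCT, log2 scale). Of the 84 wound healing genes, the 64 detected on any array were fitted with limma 3.58.1 (lmFit, eBayes; R 4.3.3), with Benjamini-Hochberg adjustment and a threshold of 0.05, in place of the study's test on each gene alone. The fit was also run on simulated CT in which no value was set to the cutoff, so that run does not check the bounds. Differences within an array were compared by exact two-sided permutation tests over 20 regroupings. An array has no sequencing depth; the number of arrays limits the precision. No pair of arrays shared a CT in any well. The members, lists and tests were chosen with earlier results of these data known. All 7 members were named, with other genes from fixed lists and the nearest gene to each member; genes of the marker lists were named with them. The alternatives were other references, cutoffs, filters and tests, a replicate block, and each array left out; the recorded CT of Col5a3 was added after the values were seen.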

Additional observations from a re-analysis of the deposited data

Results flagged for a closer look

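The genomic DNA control well gave a signal in the DS arrays, at a mean CT of 33.6 (n = 3), and stayed without a CT in control. The first reverse transcription control well had a mean CT of 29.6 (n = 3) in DS and likewise no CT in control. Both are wells outside the gene assays that carried a signal in 1 group, and neither was tested between groups. The earliest genomic DNA CT served only as an alternative cutoff.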

How the results depend on the processing

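The count of collagens called higher stayed within 1.5 times the value of 6 except with the 5 housekeeping genes (2 higher, 4 lower), with Actb and Gapdh (1 higher, 4 lower) and with only genes detected in all 6 arrays (1 higher, the sole collagen left). Leaving out 1 array in turn gave 5 or 6 higher and 0 lower. The median log2 fold change, 4.13, became 4.49 with Hsp90ab1 alone, 3.95 with Ccl7 and Egfr, 7.09 with the median CT of the assays detected in all 6 arrays, 3.63 and 6.07 with cutoffs of 35 and 40, 9.83 without a cutoff (missing CT set to 45), 5.78 with the cutoff at the earliest genomic DNA CT and 2.17 over genes detected in all 6 arrays. These medians are not all over the same genes. They cover 7 collagens with a cutoff of 40 or none, 4 with the genomic DNA cutoff and 1 over genes detected in all 6 arrays. At the genomic DNA cutoff Col5a3 and Col14a1 dropped out, while the bounds of Col1a1, Col1a2 and Col3a1 fell to 8.39, 10.0 and 3.17. The median was reversed by the 5 housekeeping genes (−3.49) and by Actb and Gapdh (−7.76), and lay between 4.10 and 4.21 when single arrays were left out. With the 5 housekeeping genes the log2 values turned to −1.53 for Col3a1, −5.45 for Col5a2, −5.56 for Col5a3 and −6.79 for Col14a1. With Actb and Gapdh they turned to −0.58 for Col1a1, −5.80 for Col3a1, −9.72 for Col5a2, −9.82 for Col5a3 and −11.06 for Col14a1. Apart from these reference changes, Col1a1, Col1a2, Col3a1, Col5a2 and Col5a3 kept their direction and call under every alternative that gave them a value, the methods' t-test included. Of 22 alternatives for Col14a1, 10 kept its direction and call, 10 kept its direction without the call and 2 reversed it. With the replicate number as a block, no call but that of Col14a1 changed (0.83, adjusted p = 0.101, limma). The deviations of same-numbered arrays correlated at 0.0913, 0.0317 and −0.215 over 16 genes. So few values cannot tell whether same-numbered cultures were paired. The difference of Col5a2 from Col4a1 ran from −0.25 to 0.63 cycles and that from Col4a3 from −13.2 to −12.4 cycles with single arrays left out. The number of arrays and the cutoff limit what can be seen: for 5 collagens the size of the change is known only as a bound. The direction of these 5 under the main reference was fixed by their entry through DS alone.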
